A study of Mus musculus with 6 samples.

Results

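Matrix metalloproteinases (*Mmp*), the membrane-anchored ADAM proteases (*Adam*), their secreted relatives with thrombospondin repeats (*Adamts*), the non-catalytic ADAMTS-like proteins (*Adamtsl*) and the tissue inhibitors of metalloproteinases (*Timp*) were examined in endothelial cell cultures of the mouse cochlea. The genes were taken by symbol, and 84 of the 24421 genes in the count table carried a symbol of 1 of these 5 families. RNA was sequenced from 3 *Nhe6*-knockout and 3 wildtype cultures, to find how the *Nhe6* knockout changes expression in cells of the blood-labyrinth barrier. Each library came from 1 culture of cells, and each culture pooled several mice. Per the study's methods, the cells came from stria vascularis taken out together with the spiral ligament on postnatal days 10 to 12. The knockout is carried by the whole animal, both genotypes are labelled with a C57BL/6N background while the study's methods name C57bl6/j, and all cultures were untreated. The cells had been sorted and grown in endothelial medium with serum before lysis, so the values describe cultured cells and not the capillary in place.

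Metalloproteinases use a zinc ion to cut proteins outside the cell. Soluble and membrane-type MMPs cut collagens and other matrix proteins, ADAM sheddases release growth factors and receptors from the cell surface, and ADAMTS enzymes trim proteoglycans and procollagens. TIMPs block the active site of most MMPs and of some ADAMs, and in vessels the balance between protease and inhibitor bears on the basement membrane and on sprouting.

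Reads counted on genes ranged from 25587097 to 29126232 per library, and the 84 genes took between 1.262% and 1.699% of them. Counts were normalized with edgeR's TMM method to the mean library size and are called normalized counts, and errors are SDs over the 3 cultures of a genotype. *Hprt*, *Nnt* and *Wdfy1* were past the threshold of edgeR's test (adjusted p under 0.05) and lower in the *Nhe6*-knockout cultures. Since differences between C57BL/6 substrains are known at *Nnt* and *Wdfy1*, genotype and genetic background cannot be told apart. Wildtype replicate 2 stood apart on the first principal component (50.2% of the variance), at 106 against -28.5 to -6.52 for the other 5 libraries. *Nhe6*-knockout replicates 1 and 2 were far more alike than any other pair, with a chi-square of 4.91 per gene against 90.1 to 398, but differed by more than sampling noise and were kept as 2 cultures. Of 12 endothelial markers, *Cldn5* had no read, *Tie1* at most 2, *Pecam1* at most 8, *Erg* at most 15 and *Vwf* at most 25 in any library, whereas *Emcn*, *Eng*, *Flt1*, *Cd34*, *Cdh5* and *Tek* averaged 100 or more normalized counts and *Kdr* had 0.978 to 70.2. The members of this list did not move together with genotype. *Cdh5* (VE-cadherin) fell in *Nhe6*-knockout cultures to 210.4 ± 27.9 from 3726 ± 1363 normalized counts (edgeR adjusted p = 0.0133). *Flt1* had a log2 fold change of -1.79 (edgeR unadjusted p = 0.0105, adjusted p = 0.242). *Tek*, *Emcn* and *Eng* were fitted higher (log2 fold changes 0.67, 0.68 and 0.76) and *Cd34* and *Kdr* lower (-1.17 and -0.42), all with overlap. The summed list had 620 to 947 CPM (counts scaled to library size) in *Nhe6*-knockout and 553 to 835 CPM in wildtype cultures. *Emcn* had the largest count of the list in every culture except wildtype replicate 2, where *Cdh5* did. *Emcn* had 410 normalized counts there, against 9900 to 18393 in the other cultures. The part of these differences in the values given below was not tested. The cells labelled as endothelial held RNA of only part of the endothelial list. All 8 fibroblast markers and 5 of 8 mural markers averaged 100 or more normalized counts. The fibroblast list summed to 8372 to 9439 CPM in *Nhe6*-knockout and 6224 to 10088 CPM in wildtype cultures. The mural list summed to 802 to 875 CPM and 580 to 1059 CPM. The fibroblast sum was thus above the endothelial sum in every culture. At an edgeR unadjusted p under 0.05, *Dcn* (fibroblast), *Notch3* and *Abcc9* (both mural) were higher in *Nhe6*-knockout cultures, where 6.14% of all genes tested were. Their log2 fold changes were 1.00, 1.24 and 2.33, with edgeR adjusted p values of 0.0952, 0.209 and 0.385. No marker of these 2 lists was lower at that level. By groups without overlap, *Dcn*, *Notch3*, *Abcc9*, *Col3a1*, *Postn*, *Pdgfrb*, *Rgs5* and *Des* were higher in *Nhe6*-knockout cultures, where 10.3% of all genes tested were. The other markers of these 2 lists overlapped between genotypes. The part of these markers in the values below was not tested either. Fewer cells of a type and less RNA per cell cannot be told apart in such bulk libraries.

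Of the 84 genes, 13 had no read in any library, 20 had too few reads to be tested and 51 were tested. The 13 without a read were 11 *Adam* genes, *Adamts19* and *Mmp7*. No gene of the 20 below the filter had more than 16 reads in a library. Among these were *Mmp9*, the gelatinase of leukocytes and sprouting vessels, with 1, 0 and 4 reads in *Nhe6*-knockout and 5, 2 and 10 in wildtype cultures, and *Adamts13*, which cuts von Willebrand factor and had a single read in all 6 libraries together. The tested genes were 13 of 23 *Mmp*, 4 of 4 *Timp*, 15 of 33 *Adam*, 15 of 19 *Adamts* and 4 of 5 *Adamtsl* genes, and lay on 18 chromosomes. Most *Adam* genes without reads belong to the group that is expressed in testis.

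Levels can be compared between genes only after division by length, so normalized counts were divided by the kilobases of exon of each gene in the GENCODE M21 annotation. The 9 most abundant members by this measure were *Timp2*, *Mmp2*, *Timp3*, *Adamts1*, *Timp1*, *Mmp14*, *Adam9*, *Adam10* and *Mmp19*. *Timp2* had 18101 ± 636 normalized counts per kilobase in *Nhe6*-knockout and 28794 ± 13999 in wildtype cultures. *Mmp2*, the gelatinase that cuts denatured collagen and type IV collagen, followed with 18846 ± 2371 and 12361 ± 3176. *Adamts1*, a proteoglycanase that also restrains vessel growth, had 7643 ± 531 and 10259 ± 6749, and *Mmp14*, the membrane-type enzyme that activates pro-MMP2 together with TIMP2, had 3412 ± 336 and 3513 ± 901. The 10 leading genes were the same when the longest transcript was used for length. Neighbours in this order, such as *Timp2* and *Mmp2* in the *Nhe6*-knockout cultures or *Timp1* and *Mmp14* in both genotypes, did not differ beyond their spread. The pro-MMP2 activation set of *Mmp2*, *Mmp14* and *Timp2* was thus expressed in all 6 cultures, while *Timp4* was the last of the 51 tested members in this order.

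**Figure D1:**
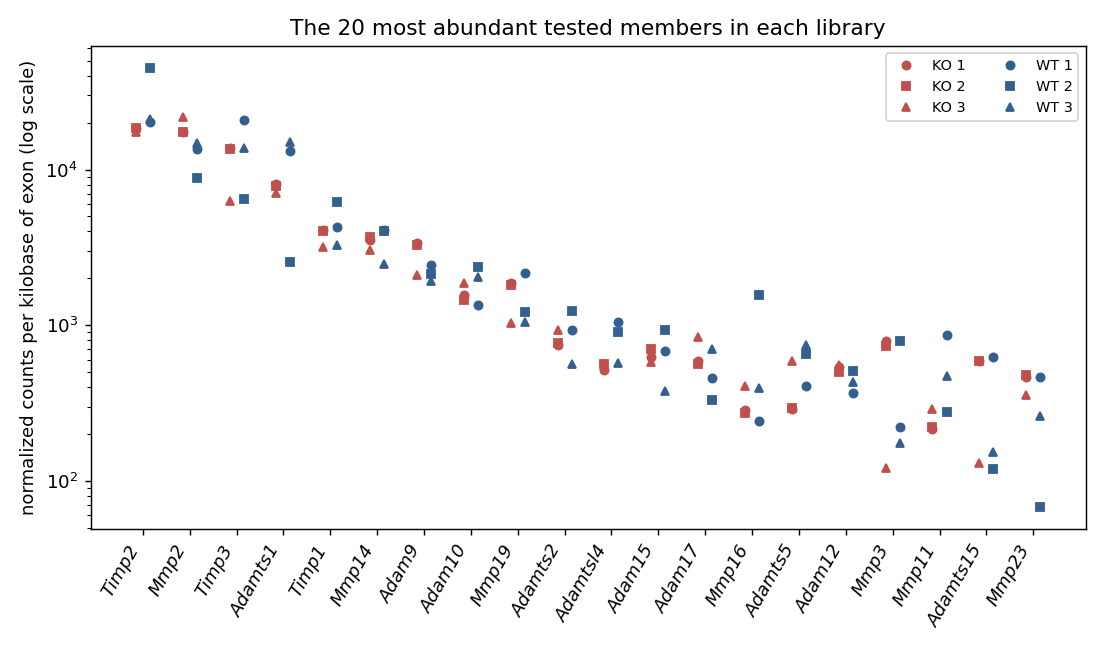
Normalized counts per kilobase of exon (log scale) of the 20 most abundant tested members, ordered by their mean, with *Nhe6*-knockout (KO, red) and wildtype (WT, blue) cultures and 1 symbol per replicate. *Timp2*, *Mmp2*, *Timp3* and *Adamts1* lead, and wildtype replicate 2 (blue squares) is the highest library for *Timp2* and *Mmp16* and the lowest for *Mmp2* and *Adamts1*.

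The genotypes were compared with edgeR's quasi-likelihood test and Benjamini-Hochberg adjustment over all 13479 genes tested. No member had an adjusted p under 0.05, where 0.0668% of all genes tested did (9 genes). Of the 51 tested members, 28 were fitted higher and 23 lower in *Nhe6*-knockout cultures, and their median log2 fold change was 0.09, against -0.02 over all genes. Before adjustment, 9 of 51 members (17.6%) had a p under 0.05, with 11.8% of all genes tested as background. In the higher direction there were 6 members (background 6.14%) and in the lower direction 3 (background 5.71%). The groups did not overlap for 10 members, against 19.9% of all genes, and of these 8 were higher in *Nhe6*-knockout cultures (background 10.3%) and 2 were lower (background 9.57%). The 10 make up a share near that of all genes. DESeq2's Wald test called 2 members, *Adamts4* and *Adamts14*, both higher, with 4.69% of all genes called by that test. Without wildtype replicate 2 edgeR called 3 members, *Adamts4* and *Adamts14* higher and *Adamts1* lower, with 2.88% of all genes called in that fit. Cell cycle markers were higher in the *Nhe6*-knockout cultures, with 7 of 8 at an unadjusted p under 0.05 and a summed level of 237 to 416 CPM (counts scaled to library size) against 73.2 to 112 CPM in wildtype cultures. Their part in the differences given here was not tested.

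**Figure D2:**
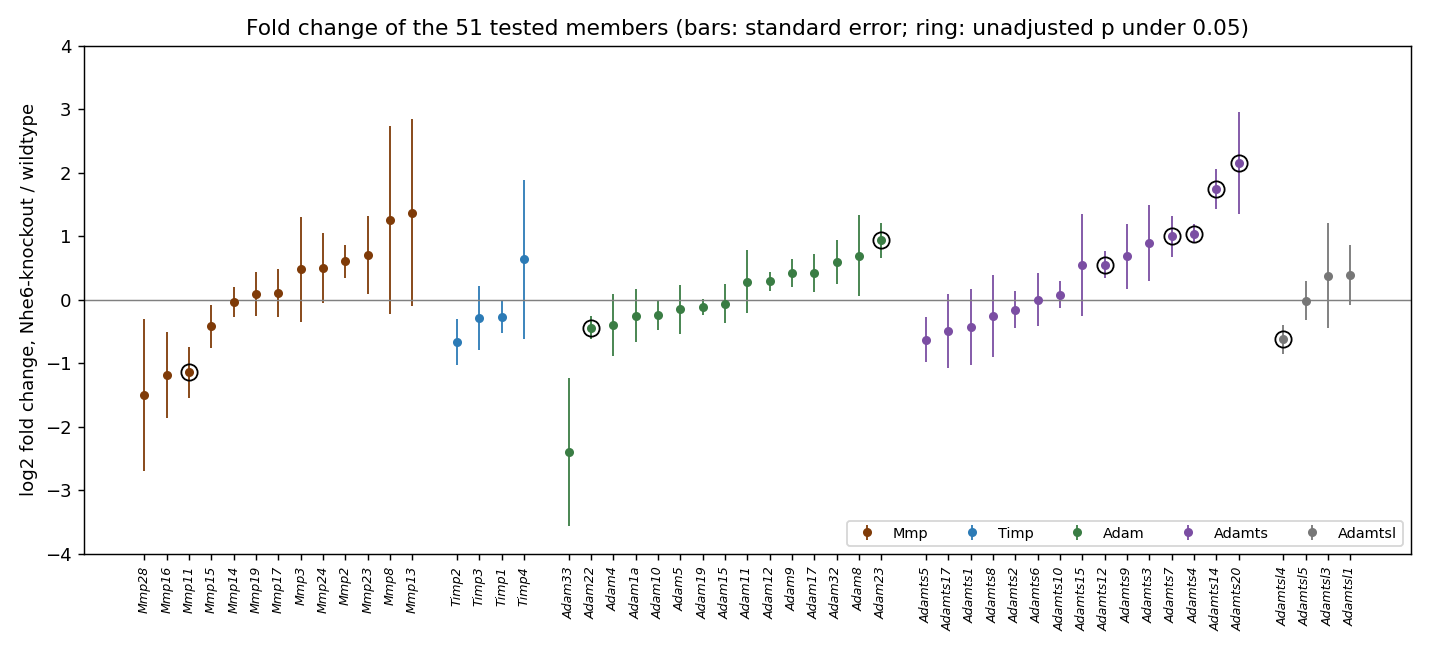
Log2 fold change (*Nhe6*-knockout over wildtype, edgeR) of the 51 tested members by family, with bars for the standard error and a ring around the 9 with an unadjusted p under 0.05. No member was past the threshold after adjustment, and 5 of the 9 rings are on *Adamts* genes (15 of the 51 tested members), all above 0.

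The secreted MMPs that passed the filter were led by *Mmp2*. It had 59009, 58822 and 72759.6 normalized counts in the *Nhe6*-knockout cultures and 45800.0, 29515 and 49695 in the wildtype cultures. All *Nhe6*-knockout values lay above all wildtype values, a 1.52-fold difference in means, but the log2 fold change of 0.61 (standard error 0.26) had an adjusted p of 0.437 in edgeR's test. *Mmp19*, a secreted protease of vessel walls and skin, had 6625, 6392 and 3652 against 7657, 4264 and 3714, and the groups overlapped. *Mmp11*, called stromelysin 3 and released in active form after furin cleavage, had 602, 619 and 799 normalized counts in *Nhe6*-knockout and 2390.1, 774 and 1304 in wildtype cultures. Its log2 fold change of -1.15 (standard error 0.40, edgeR unadjusted p = 0.0274, adjusted p = 0.345) rested on wildtype replicates 1 and 3, and wildtype replicate 2 lay below the highest *Nhe6*-knockout value. Exons of *Chchd10* on the other strand cover 5.58% of the *Mmp11* exons. Whether the counting used strand is not given in the sources used here, so reads of such overlapping genes may not be separated. Among the other members named with their values, the share of exons covered from the other strand was 28.3% for *Mmp19*, 21.3% for *Timp3*, 20.6% for *Adam15*, 12.0% for *Mmp28* and for *Adamts9*, and 10.1% for *Adam19*. Tested members whose gene bounds overlap a gene on the same strand numbered 10. Strand does not separate reads of exons shared in that way, and those shares are not given here.

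Of the membrane-type enzymes, *Mmp14* was the most abundant and the most even. It had 21095, 21851 and 18064 normalized counts in *Nhe6*-knockout and 24226, 23845 and 14741 in wildtype cultures, a log2 fold change of -0.04 (standard error 0.24). *Mmp16*, which like *Mmp14* can activate pro-MMP2, had 2469, 2349.6 and 3546 in *Nhe6*-knockout and 2102, 13529 and 3443 in wildtype cultures. Its fitted log2 fold change of -1.19 (standard error 0.68, edgeR adjusted p = 0.560) came from wildtype replicate 2 alone and was 0.0028 without that culture. *Mmp15*, *Mmp17* and *Mmp24* lay between 5.35 and 656 normalized counts and overlapped between genotypes.

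Several collagenase and stromelysin genes lie side by side on chromosome 9, and 3 of them varied together across the cultures without following genotype. *Mmp3*, stromelysin 1, which cuts many matrix proteins and activates other pro-MMPs, had 1433, 1322 and 217 normalized counts in *Nhe6*-knockout and 399, 1416 and 316 in wildtype cultures. It was high in *Nhe6*-knockout replicates 1 and 2 and in wildtype replicate 2 and low in the other 3, a 6.61-fold range. *Mmp13* and *Mmp8*, both collagenases that cut fibrillar collagen, were named after their values were seen. *Mmp13* had 85.0, 61.3 and 9.47 against 0.978, 57.8 and 1.07 normalized counts. *Mmp8* had 12, 16 and 0 reads in *Nhe6*-knockout and 0, 10 and 1 in wildtype cultures. The same 3 cultures were high for all 3 genes, but *Mmp13* and *Mmp8* were picked with this pattern in view. *Mmp8* had at most 16 reads in a library. The 3 cultures include *Nhe6*-knockout replicates 1 and 2, the pair far more alike than any other. *Mmp10*, stromelysin 2, had 10 reads in wildtype replicate 2 and at most 1 in any other library, and *Mmp7* had none.

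Promoters of the cluster were searched for TGACTCA and its reverse complement TGAGTCA, the site bound by AP-1, which is known to act on collagenase and stromelysin genes. Each window ran from 250 bases before to 50 bases after a start site, from RefSeq on GRCm38.p6. The motif was found in 7 of the 12 promoter windows of the cluster (7 of 10 genes, namely *Mmp1a*, *Mmp1b*, *Mmp3*, *Mmp7*, *Mmp10*, *Mmp12* and *Mmp13*), in 3 of 46 windows of the other members with a promoter (6.52%) and in 5.20% of all 32851 promoters. Of the 84 members, 53 had a promoter in the RefSeq table. The 120 bases before the start site are shown for the cluster genes described above, 5′ to 3′ on the strand of the gene, with the motif in capitals. They stand at chr9:7445702-7445821 for *Mmp3*, chr9:7272394-7272513 for *Mmp13*, chr9:7502222-7502341 for *Mmp10* and chr9:7558309-7558428 for *Mmp8*, all on the plus strand.
Mmp3: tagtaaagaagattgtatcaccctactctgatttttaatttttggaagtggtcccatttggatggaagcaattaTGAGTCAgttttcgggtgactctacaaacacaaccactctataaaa
Mmp13: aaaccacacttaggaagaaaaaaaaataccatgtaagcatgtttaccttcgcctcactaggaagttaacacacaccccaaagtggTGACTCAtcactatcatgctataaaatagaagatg
Mmp10: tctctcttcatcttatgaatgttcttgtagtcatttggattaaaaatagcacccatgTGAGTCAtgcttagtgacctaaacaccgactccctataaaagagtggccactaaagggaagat
Mmp8: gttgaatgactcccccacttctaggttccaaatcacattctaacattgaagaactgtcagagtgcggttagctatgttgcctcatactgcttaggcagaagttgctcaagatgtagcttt
The motif begins at base -46 of *Mmp3*, -35 of *Mmp13* and -63 of *Mmp10*, counted from the start site. *Mmp8* does not hold these letters in the window, although its reads were high in the same 3 cultures, and *Mmp7* holds them and had no read. A match is a description of the sequence and not a measured binding site.

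**Figure D3:**
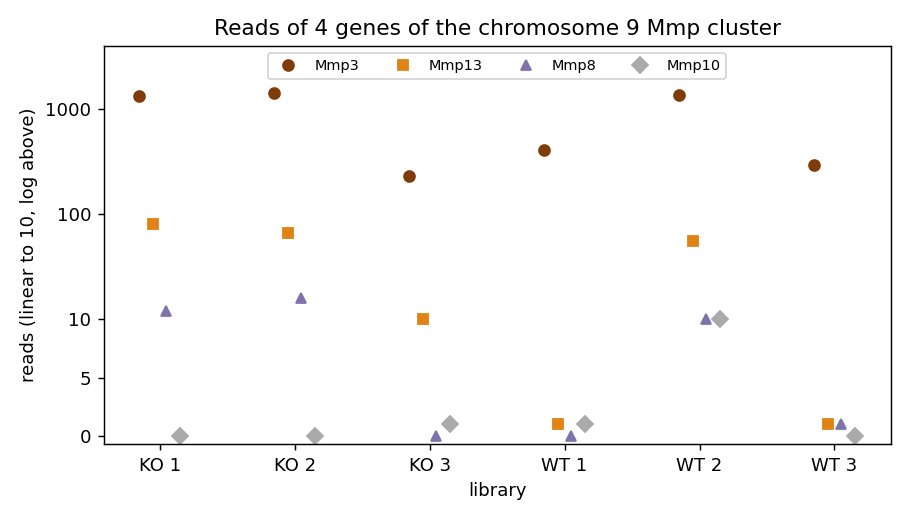
Reads in each library (linear axis up to 10, log axis above) of 4 genes of the chromosome 9 *Mmp* cluster. *Mmp3*, *Mmp13* and *Mmp8* are high in *Nhe6*-knockout replicates 1 and 2 and in wildtype replicate 2, and *Mmp10* reaches 10 reads in wildtype replicate 2 only.

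None of the 4 inhibitors passed the threshold in edgeR's test. *Timp2*, which binds both MMP2 and MMP14, had 72228, 71659.5 and 67679.8 normalized counts in *Nhe6*-knockout and 79019.5, 175128 and 82394 in wildtype cultures. Every *Nhe6*-knockout value lay below every wildtype value, yet most of the difference in means came from wildtype replicate 2. The log2 fold change was -0.67 (standard error 0.36, edgeR adjusted p = 0.537) and -0.20 without that culture. *Timp3*, which stays bound to the matrix and also blocks ADAM17, had 112270.0, 109674 and 51246 against 168706, 52327 and 112333. It was lowest in *Nhe6*-knockout replicate 3 and wildtype replicate 2, with overlap between genotypes. Exons of *Syn3* on the other strand cover 21.3% of its exons. *Timp1*, induced by growth factors and cytokines, had 3636, 3586 and 2834 against 3774, 5476 and 2891, a log2 fold change of -0.27 (standard error 0.25). *Timp4* had 11.7, 12.1 and 2.84 against 15.6, 1.03 and 0 normalized counts, too few to place the genotypes in order.

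Summed over each family per kilobase, the *Timp* genes had 33059 ± 5378 normalized counts per kilobase in *Nhe6*-knockout and 46997 ± 9790 in wildtype cultures, and the *Mmp* genes 25497 ± 1228 and 19426 ± 2423. The ratio of the summed *Timp* to the summed *Mmp* level was 1.47, 1.45 and 0.998 in *Nhe6*-knockout and 2.08, 3.40 and 1.94 in wildtype cultures. The ratio was lower in all 3 *Nhe6*-knockout cultures than in all 3 wildtype cultures, also with the longest transcript for length (1.01 to 1.58 against 2.08 to 2.88) and without *Timp3* (0.764 to 0.913 against 1.13 to 3.02). It was formed after the values were seen and is therefore a description with no test. For the leading pair alone, *Timp2* over *Mmp2*, it was 1.06, 1.05 and 0.805 against 1.49, 5.13 and 1.43. That separation was fixed in advance, since *Timp2* was lower and *Mmp2* higher in every *Nhe6*-knockout culture. Both genes are also part of each summed ratio above. Without *Mmp2* and *Mmp14* the summed *Mmp* level was 3239 ± 814 and 3552 ± 977, which did not differ beyond its spread. RNA levels do not measure active enzyme.

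**Figure D4:**
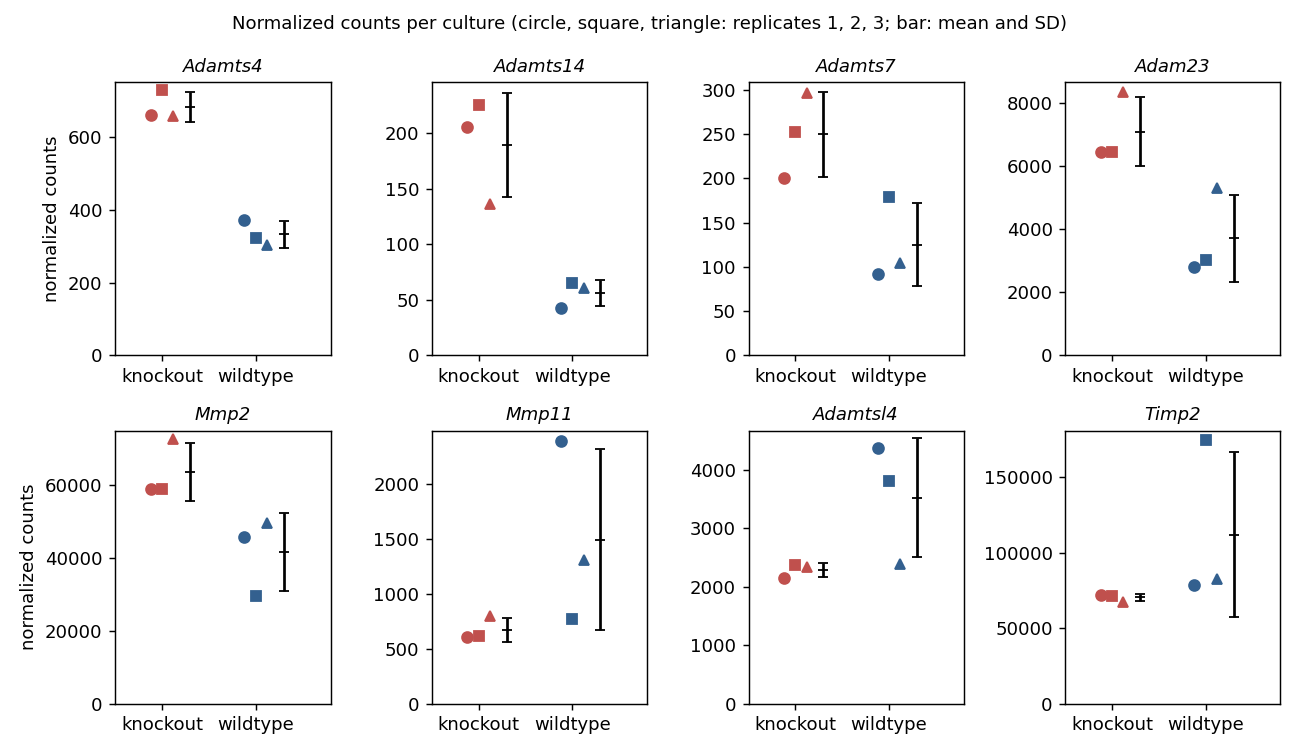
Normalized counts of 8 members in each culture, with the mean and SD of each genotype (axes start at 0, red for *Nhe6*-knockout, blue for wildtype). Groups do not overlap for *Adamts4*, *Adamts14*, *Adamts7*, *Adam23*, *Mmp2*, *Adamtsl4* and *Timp2*, and they do for *Mmp11*.

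Among the ADAM sheddases, *Adam9* and *Adam10* were the most abundant per kilobase. *Adam9*, which sheds growth factors and receptors, had 13808, 13397 and 8654 normalized counts in *Nhe6*-knockout and 10088, 8783 and 7968 in wildtype cultures. *Adam10*, the enzyme that cuts Notch and VE-cadherin (*Cdh5*), had 7626, 7087 and 9221 against 6604, 11587 and 10067, a log2 fold change of -0.24 (standard error 0.24, edgeR adjusted p = 0.759). *Adam17*, which releases tumour necrosis factor and EGF receptor ligands, had 4218, 4017 and 6039.7 against 3288, 2367 and 4995, a log2 fold change of 0.42 (standard error 0.31, edgeR adjusted p = 0.660). For all 3 of these sheddases the groups overlapped. *Adam15*, which carries an integrin-binding sequence and is found in endothelium, had 3829, 4299 and 3576 against 4170.0, 5709 and 2337. *Adam12* had 5733, 5327 and 5910.0 against 3906, 5367 and 4586, with a log2 fold change of 0.29 (standard error 0.15, edgeR unadjusted p = 0.0983). *Adam19* was the most even of the sheddases, between 1782 and 2193 normalized counts in all 6 cultures. *Adam33*, chosen after its values were seen, had 383 normalized counts in wildtype replicate 2 and between 20.2 and 34.4 in the other 5.

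The largest difference in the ADAM family that set the genotypes apart was in *Adam23*, which lacks the zinc-binding site and binds integrins and LGI proteins. It had 6453, 6465 and 8360.0 normalized counts in *Nhe6*-knockout and 2809, 3025 and 5303 in wildtype cultures. Every *Nhe6*-knockout culture lay above every wildtype culture, a 1.91-fold difference in means. The log2 fold change of 0.93 (standard error 0.28) had an unadjusted p of 0.0137 and an adjusted p of 0.266 in edgeR's test, and the adjusted p lay between 0.0523 and 0.693 over 14 alternatives. *Adam22*, its relative without protease activity, pointed the other way, with 1994, 1908 and 2481 against 2423, 2739.8 and 3505. Its log2 fold change was -0.44 (standard error 0.18, edgeR unadjusted p = 0.0496, adjusted p = 0.421), and the groups overlapped. *Adam32* was the only other ADAM gene whose groups did not overlap, at 43.5 to 66.0 against 30.0 to 43.0 normalized counts, with an adjusted p of 0.571 in edgeR's test.

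The ADAMTS genes held 5 of the 6 members that were higher in *Nhe6*-knockout cultures at an unadjusted p under 0.05. These were 5 of the 15 ADAMTS genes tested, where 6.14% of all genes tested were higher at that level. Their edgeR adjusted p values ran from 0.0841 to 0.392, so none was past the threshold. The family as a set was not tested. *Adamts4*, an aggrecanase that cuts aggrecan and versican, had the smallest p of all members. Normalized counts were 661, 729.6 and 659 for the *Nhe6*-knockout cultures and 374, 322 and 303 for the wildtype cultures. The values of each genotype lay close together and far from the other genotype, with means of 683 ± 40.3 and 333 ± 36.6, a 2.05-fold difference. The log2 fold change was 1.04 (standard error 0.15, edgeR unadjusted p = 0.000345, adjusted p = 0.0841). Over 14 alternatives the log2 fold change ranged from 0.97 to 1.12 and the adjusted p from 6.61e-07 (DESeq2) to 0.471. In edgeR the adjusted p was 0.0379 without wildtype replicate 2 and 0.471 without *Nhe6*-knockout replicate 1. It was 0.458 without *Nhe6*-knockout replicate 2 and also with these 2 alike *Nhe6*-knockout cultures summed. *Adamts4* lies on chromosome 1 at 171250421 to 171260637 (GRCm38, plus strand). Its 142 ± 8.38 and 69.2 ± 7.61 normalized counts per kilobase placed it 28th of the 51 tested members.

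*Adamts14*, which removes the N-terminal propeptide of procollagens, had 206, 226 and 136 normalized counts in *Nhe6*-knockout and 43.0, 65.0 and 61.0 in wildtype cultures. All *Nhe6*-knockout cultures were above all wildtype cultures, with means 3.36-fold apart. The log2 fold change was 1.75 (standard error 0.32, edgeR unadjusted p = 0.00118, adjusted p = 0.106), with an adjusted p of 9.07e-05 in DESeq2 in a range up to 0.479 over 14 alternatives, and just under the threshold without wildtype replicate 2. In edgeR the adjusted p was 0.479 without *Nhe6*-knockout replicate 1, 0.462 without replicate 2 and 0.464 with both summed. The gene lies on chromosome 10 at 61197112 to 61273438 (minus strand). For the other procollagen N-proteinases the groups overlapped. *Adamts2*, the abundant member of the trio, had 6988, 7160.2 and 8652 against 8706, 11546 and 5233, and *Adamts3* had 7.43 to 15.8 against 3.91 to 11.4 normalized counts.

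*Adamts7* and *Adamts12*, 2 related enzymes that cut cartilage oligomeric matrix protein, were both fitted higher. *Adamts7* had 201, 253 and 296 against 91.9, 179 and 105 normalized counts, with no overlap and a log2 fold change of 1.00 (standard error 0.32, edgeR unadjusted p = 0.0197, adjusted p = 0.303). *Adamts12* had 1088, 1139 and 705 against 655, 596 and 747, where *Nhe6*-knockout replicate 3 lay below a wildtype culture, and its log2 fold change was 0.55 (standard error 0.22, edgeR unadjusted p = 0.0401, adjusted p = 0.392). *Adamts20*, a versican-cutting enzyme of skin and pigment cell development, had only 21.2, 17.7 and 76.7 against 8.80, 3.10 and 13.9 normalized counts. Its log2 fold change of 2.15 (standard error 0.81, edgeR unadjusted p = 0.0350, adjusted p = 0.372) was raised by *Nhe6*-knockout replicate 3.

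Of the other proteoglycanases, *Adamts1* was the most abundant. It had 42616, 41627 and 37320.3 normalized counts in *Nhe6*-knockout and 69459, 13540.2 and 80173 in wildtype cultures. The *Nhe6*-knockout cultures were close to each other, and wildtype replicates 1 and 3 lay above them and replicate 2 below. Its log2 fold change was -0.42 (standard error 0.60, edgeR adjusted p = 0.842) and -0.89 without wildtype replicate 2, with an adjusted p of 0.0443 there, the lowest of 14 alternatives (0.0443 to 0.999). *Adamts5*, the second aggrecanase, had 3112, 3168 and 6345 against 4418, 7063 and 8052. *Adamts15* had 6106, 6134 and 1359 against 6476, 1231 and 1593, so that *Nhe6*-knockout replicates 1 and 2 and wildtype replicate 1 formed a high set and the other 3 a low set across genotypes. *Adamts9*, a versicanase of vessels, had 2737, 2608 and 2639 against 2567, 528 and 1859.6, without overlap, and its adjusted p was 0.666 in edgeR's test. *Adamts10*, which associates with fibrillin microfibrils, had 1293, 1415 and 1639 against 1788, 1109 and 1209.

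The ADAMTS-like proteins lack the protease domain and sit in the matrix, several of them on microfibrils. *Adamtsl4*, which binds fibrillin 1, had 2151, 2374 and 2348 normalized counts in *Nhe6*-knockout and 4376, 3820.3 and 2391 in wildtype cultures. The groups did not overlap, but wildtype replicate 3 was only just above the *Nhe6*-knockout values. The log2 fold change was -0.62 (standard error 0.23, edgeR unadjusted p = 0.0317, adjusted p = 0.363). *Adamtsl3* had 302, 289 and 1574 against 275, 1039 and 354, and *Adamtsl1* had 2006, 2125 and 5396 against 1629, 3562 and 2069. Both were highest in *Nhe6*-knockout replicate 3 and next in wildtype replicate 2. *Adamtsl5* had 916, 975 and 682 against 892, 1164 and 538, with means that differed by less than their spread.

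The members varied more between cultures of 1 genotype than most genes did. Among the 38 members that averaged 100 or more normalized counts, the median coefficient of variation was 15.9% in *Nhe6*-knockout and 38.0% in wildtype cultures, against 8.98% and 20.8% over the 11127 genes with the same minimum. These genes were not matched to the members by level. The *Nhe6*-knockout values include replicates 1 and 2, the pair that was far more alike than any other. The highest library was at least 3-fold above the lowest for 15 of the 38 (39.5%), against 16.0% of those genes. Wildtype replicate 2 was the highest or lowest library for 26 of the 51 tested members, and for 53.3% of all genes tested. *Mmp16*, *Mmp28* and *Adam33* were highest there, 5.48-fold, 11.9-fold and 14.5-fold above the median of the other 5 libraries. *Mmp28*, an epithelial MMP also called epilysin, had 317 normalized counts there and 11.8 to 58.7 elsewhere. *Mmp23*, a transmembrane protease, went the other way, at 159 against 612 to 1119.9 (both genes were chosen after their values were seen). Macrophage markers summed to 2.19 CPM in wildtype replicate 2 and 14.9 to 38.4 in the others, and 5 of 8 fibroblast markers (*Dcn*, *Lum*, *Pdgfra*, *Fbln1* and *Col3a1*) were lowest there, while *Col1a1* had 27187 normalized counts against 207 to 1228 and *Col1a2* was also highest there. Of the mural markers, *Acta2* (16275 against 29.3 to 1204 normalized counts) and *Cspg4* (4410 against 385 to 783) were highest there, and *Pdgfrb*, *Rgs5*, *Des* and *Abcc9* lowest. Of the endothelial markers, *Emcn* (410 against 9900 to 18393) and *Eng* (867 against 2722 to 5081) were lowest there. *Cdh5*, *Flt1*, *Cd34*, *Tek* and *Kdr* were highest there. The part of these markers in these values was not tested.

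**Figure D5:**
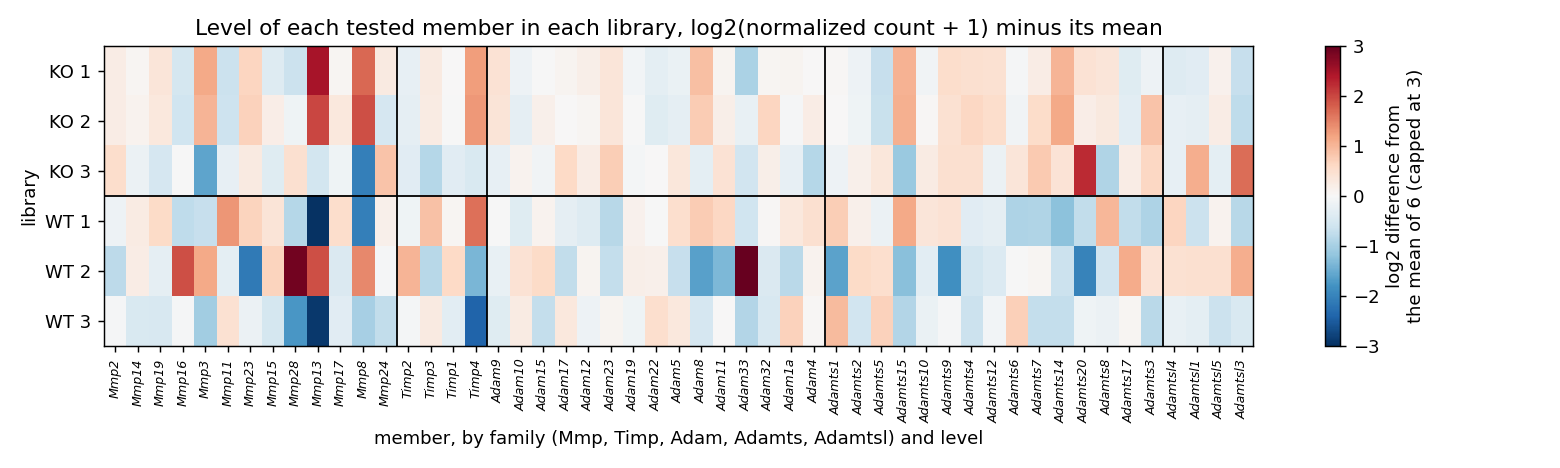
Level of each of the 51 tested members in each library, as log2(normalized count + 1) minus the mean over the 6 libraries, with families set apart by vertical lines and genotypes by a horizontal line (red above, blue below the mean, capped at 3). Wildtype replicate 2 (WT 2) holds the extremes of *Mmp28*, *Adam33*, *Mmp16* and *Adamts1*, *Nhe6*-knockout replicates 1 and 2 (KO 1, KO 2) look alike, and the *Adamts4* and *Adamts14* columns are red in all 3 *Nhe6*-knockout libraries.

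Other genes of the system were taken as a list of 60 activators, partners, further inhibitors, substrates, shed ligands and related enzymes. Of the 43 that were tested, 19 were fitted higher and 24 lower, their median log2 fold change was -0.13, and 0 passed the adjusted threshold in edgeR's test. At an unadjusted p under 0.05 there were 3 higher and 3 lower, where 6.14% and 5.71% of all genes were, and DESeq2 called 2, *Fbn2* and *Tspan5*, where it called 4.69% of all genes. Both counts are near those shares. Of the activators, *Furin*, the convertase that removes the prodomain of many ADAM and ADAMTS enzymes, had 2949, 3302 and 3307 normalized counts in *Nhe6*-knockout and 2446, 2414 and 1807 in wildtype cultures. The log2 fold change of *Furin* was 0.52 (standard error 0.15, edgeR unadjusted p = 0.0129, adjusted p = 0.262), without overlap. *Lrp1*, the receptor that clears MMPs, ADAMTS enzymes and TIMPs from the cell surface, had 95381, 108105 and 75734 against 63779.9, 62639 and 43931, a log2 fold change of 0.71 (standard error 0.26, edgeR unadjusted p = 0.0315, adjusted p = 0.363).

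*Tspan5*, a tetraspanin that carries ADAM10 to the surface, had 1821, 1909 and 1508 normalized counts in *Nhe6*-knockout and 3477, 10283 and 3023 in wildtype cultures. It lay lower in every *Nhe6*-knockout culture, with a log2 fold change of -1.68 (standard error 0.49, edgeR adjusted p = 0.257) that was -0.90 without wildtype replicate 2 (edgeR adjusted p = 0.0379). Of the substrates, *Fbn2*, a fibrillin of developing microfibrils, had 5255, 5357 and 6089.9 against 1916, 1539 and 3080.4, a log2 fold change of 1.35 (standard error 0.27, edgeR adjusted p = 0.114, DESeq2 adjusted p = 0.000340). *Fn1*, fibronectin, had 34794, 35763 and 52257 against 44091, 102544 and 88491, and *Comp* had 14.9 to 21.8 against 62.6, 298 and 19.3, both with overlap and with edgeR adjusted p values of 0.399 and 0.351. *Vcan*, the versican core protein that several ADAMTS enzymes cut, had 12408, 11926 and 12117 in *Nhe6*-knockout and 2089, 11147 and 2428 in wildtype cultures. The groups did not overlap, but wildtype replicate 2 came close to the *Nhe6*-knockout values. Its adjusted p in edgeR's test was 0.531 with all cultures and 0.00631 without wildtype replicate 2, where *Serpine2*, an inhibitor of serine proteases, also had an adjusted p of 0.0379. The 7 tested shed ligands overlapped between genotypes without exception.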

How the data were processed

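Per the labels, the submitters' processing notes name bcl2fastq 2.20.0.422, STAR 2.7.7a, HTSeq 0.13.5, DESeq2 1.26.0 and mm10, applied to poly(A)-enriched stranded libraries. The deposited values are raw read counts per gene symbol, without normalization by the authors, and the annotation release and strand setting of the counting are not given in the sources used here. Summary lines for reads outside genes (22.2% of all reads) were left out.

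Genes were filtered with filterByExpr (minimum count 10), normalized with TMM and tested for genotype alone with edgeR 4.0.16 (R 4.3.3), with Benjamini-Hochberg adjustment over 13479 genes and a threshold of 0.05. The standard error is the log2 fold change divided by the square root of F. The test was first tried on simulated counts. Alternatives were other normalizations and filters, DESeq2 1.42.0, limma-voom (limma 3.58.1), a replicate block and leaving out each culture. Summing *Nhe6*-knockout replicates 1 and 2 was added after seeing the data, as were alternatives for the counts of groups without overlap and of unadjusted p values.

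Positions and exon lengths came from GENCODE M21 (GRCm38), promoters from RefSeq (GRCm38.p6). Values per culture were given for members with an unadjusted p under 0.05, without overlap and a log2 difference of at least 1, or among the 5 most abundant of their family. Members, lists and this rule were chosen with earlier results of these data known. P-values measure the spread between 3 cultures per genotype. The level of the targeted gene is not reported here.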

Additional observations from a re-analysis of the deposited data

How the results depend on the processing

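No member passed the threshold in edgeR under the other normalizations and filters, with the replicate block or the summed replicates, or in limma-voom, while DESeq2 called 2 members and the fits without 1 culture called 0 to 3, the 3 without wildtype replicate 2. Over all genes the 9 calls became 21 without a filter, 21 with at least 10 counts in every library, 627 with DESeq2, 2 with a replicate block, 1 with *Nhe6*-knockout replicates 1 and 2 summed, and 0 to 395 without 1 culture (395 without wildtype replicate 2, 0 without *Nhe6*-knockout replicate 3). Among the 60 other genes, 2 were called by DESeq2 and 0 to 3 without 1 culture (3 without wildtype replicate 2). Members with an unadjusted p under 0.05 numbered 5 with *Nhe6*-knockout replicates 1 and 2 summed and 4 to 12 without 1 culture (4 without *Nhe6*-knockout replicate 2, 5 without replicate 1), and members without overlap 12 to 20 without 1 culture, where fewer values can overlap. The shares of all genes in these reduced fits were not computed, so these counts of members cannot be set against a background. Deviations of same-numbered cultures correlated at 0.21, -0.19 and 0.11. Whether the replicate numbers pair the cultures cannot be told from these values, since different-numbered cultures were not compared. The replicate block left 0 members past the threshold, as did the fit without it.

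Of 36 members followed through the alternatives, 23 kept their direction in every one, *Adamts4*, *Adamts14*, *Adam23*, *Mmp2* and *Timp2* among them, and 13 reversed in at least 1. Log2 fold changes without 1 culture ranged from -0.35 to 0.26 for *Adam15*, -2.92 to 0.17 for *Adam33*, -0.0533 to 0.32 for *Adamts10*, -0.42 to 0.12 for *Adamts2*, -0.24 to 0.78 for *Adamtsl1*, -0.92 to 1.20 for *Adamtsl3*, -0.27 to 0.26 for *Adamtsl5*, -0.25 to 0.0701 for *Mmp14*, -1.61 to 0.0028 for *Mmp16*, -0.11 to 0.47 for *Mmp19*, -2.04 to 1.25 for *Mmp28*, -0.47 to 0.00346 for *Timp1* and -0.63 to 0.14 for *Timp3*. The reversals of *Adam33*, *Adamts2*, *Mmp16*, *Mmp28* and *Timp1* came only without wildtype replicate 2, those of *Adamtsl1* and *Adamtsl3* only without *Nhe6*-knockout replicate 3, and that of *Timp3* only without wildtype replicate 1. *Adam15* also turned to 0.0281 with limma-voom and 0.0251 with the replicate block, *Adamtsl5* to 0.0244 with upper-quartile normalization, 0.0357 with limma-voom and 0.0400 with the block, and *Mmp19* to -0.0393 with *Nhe6*-knockout replicates 1 and 2 summed. The cause of these changes was not tested. With 3 cultures per genotype and this spread, a missed threshold does not show equal levels, and members with few reads were limited by depth.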
